A study of Mus musculus with 21 samples.

Results

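The Hox genes encode homeodomain transcription factors and lie in 4 clusters, HoxA, HoxB, HoxC and HoxD, on mouse chromosomes 6, 11, 15 and 2. A member was any gene with the symbol of one of these clusters and a paralog number from 1 to 13, measured by a probe set whose platform annotation gave that symbol alone, and the probe set with the highest mean stood for the gene. The rule took 37 of the 19296 named genes on the array. They were 10 HoxA, 9 HoxB, 9 HoxC and 9 HoxD genes, each with 1 such probe set.

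Hox genes are known for giving cells a position along the head-to-tail axis. Within a cluster, genes of low paralog number lie towards one end and are expressed from more anterior levels, and genes of high paralog number lie towards the other end and are expressed further back, a relation called collinearity. In the gut and its derivatives, Hox genes are best known from the mesoderm around the endodermal tube, and their proteins bind DNA together with cofactors of the TALE homeodomain class, the Meis, Pbx and Pknox (Prep) proteins.

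The study measured total RNA of embryonic mouse pancreas on Affymetrix arrays on 4 successive days, from E12.5 to E15.5. Pancreatic cells were sorted at each day by fluorescence of FVF, a fusion of the endoderm transcription factor Foxa2 with the Venus fluorescent protein. FVF- cells were measured on 2, 2, 3 and 3 arrays and FVF+ cells on 3, 2, 3 and 3 arrays at the 4 days, 21 arrays in all. Every group came from pancreas of embryos carrying the fusion on a mixed background of C57-Bl6, SV129 and CD1, and the labels name no further allele or treatment. The replicates are called biological, without a statement of whether they came from separate litters or pools, so each p-value reflects no more than how far these particular samples spread.

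The values were log2 signals normalised by the authors, with array medians from 8.68 to 8.82. Arrays of 1 group correlated at 0.985 to 0.997 over all genes, and arrays of different sorts at no more than 0.941. Foxa2 itself was 2.91 higher in FVF+ cells on the log2 scale (SE 0.10, limma, adjusted p = 1.87e-14). The mean of 8 epithelium markers was 12.20 to 12.75 on FVF+ arrays and 8.03 to 9.75 on FVF- arrays. The mean of 12 mesenchyme markers was 8.42 to 9.69 on FVF+ arrays and 11.69 to 12.48 on FVF- arrays. FVF- cells also carried the marker genes of other cell types, with means of 10.06 to 11.42 for 7 endothelium markers against 7.47 to 9.31 in FVF+ cells, and of 9.51 to 11.04 against 7.26 to 8.19 for 7 leukocyte markers. The number of arrays limits the precision of every comparison.

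MicroRNA genes lie inside the clusters, and 2 seed families of them are shared between clusters. Their mature forms are shown because the arrays held probe sets for their genes, and a seed (bases 2 to 8, in capitals) is the part by which a microRNA chiefly recognises its targets. Sequences are from RefSeq on build GRCm38.p6. The first pair is encoded at chr11:96317186-96317208 on the plus strand, beside Hoxb4, and at chr2:74726074-74726096 on the plus strand, beside Hoxd4. The next pair is encoded in HoxB at chr11:96265187-96265208 on the plus strand, with an identical copy in HoxC, and in HoxA at chr6:52230129-52230150 on the minus strand. The last lies in HoxC at chr15:103014969-103014990 on the plus strand.
mmu-miR-10a-5p: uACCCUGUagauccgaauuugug
mmu-miR-10b-5p: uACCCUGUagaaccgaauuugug
mmu-miR-196a-5p: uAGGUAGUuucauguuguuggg
mmu-miR-196b-5p: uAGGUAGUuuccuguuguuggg
mmu-miR-615-3p: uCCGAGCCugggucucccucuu
The miR-10 pair shares the seed ACCCUGU and differs by the substitution U12A, counted from 1 at the 5′ end of miR-10a with its base first. The miR-196 pair shares the seed AGGUAGU and differs by A12C, counted in the same way from miR-196a. The seed of miR-615-3p, CCGAGCC, was shared by no other mature form of these 6 microRNA genes.

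The RefSeq promoter table, which gives 250 bases before and 50 after each start, held 23 promoters of 21 of the 37 Hox genes. 4 are printed because the results turn on their genes. Hoxa5 had the largest difference between the sorts, Hoxb4 the largest difference between the sorts in its change over time, Hoxa2 the only match to a composite site among the genes that were lower in FVF+ cells, and Hoxa13 is a posterior gene of the same cluster with no called difference between the sorts. Capitals mark TGATTNAT, the letters of a composite site of TALE and Hox proteins, TGACAG, the letters bound by single TALE proteins, and AGGTCA, those bound by single retinoic acid receptors, each on either strand. Hoxa2 lies at chr6:52164782-52165081, Hoxa5 at chr6:52204538-52204837 and Hoxa13 at chr6:52260831-52261130, all on the minus strand, and Hoxb4 at chr11:96318017-96318316 on the plus strand, build GRCm38.p6.
Hoxa2: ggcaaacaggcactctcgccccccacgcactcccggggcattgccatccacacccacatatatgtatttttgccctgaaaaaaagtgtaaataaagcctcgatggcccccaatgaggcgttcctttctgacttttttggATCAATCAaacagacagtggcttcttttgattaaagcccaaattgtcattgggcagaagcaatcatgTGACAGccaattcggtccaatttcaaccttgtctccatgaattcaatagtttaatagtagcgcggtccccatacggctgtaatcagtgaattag
Hoxa5: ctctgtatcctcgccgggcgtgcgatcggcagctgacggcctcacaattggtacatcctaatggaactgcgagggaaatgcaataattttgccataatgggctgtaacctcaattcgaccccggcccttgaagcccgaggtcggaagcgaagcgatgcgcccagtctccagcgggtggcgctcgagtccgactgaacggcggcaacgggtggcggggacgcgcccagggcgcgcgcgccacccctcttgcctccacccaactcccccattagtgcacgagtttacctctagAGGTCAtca
Hoxb4: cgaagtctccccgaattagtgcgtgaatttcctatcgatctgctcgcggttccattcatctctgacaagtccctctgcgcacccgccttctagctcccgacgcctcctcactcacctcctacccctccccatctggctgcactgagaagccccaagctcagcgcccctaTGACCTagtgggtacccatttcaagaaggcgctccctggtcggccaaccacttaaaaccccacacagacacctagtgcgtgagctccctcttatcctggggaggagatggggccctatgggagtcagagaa
Hoxa13: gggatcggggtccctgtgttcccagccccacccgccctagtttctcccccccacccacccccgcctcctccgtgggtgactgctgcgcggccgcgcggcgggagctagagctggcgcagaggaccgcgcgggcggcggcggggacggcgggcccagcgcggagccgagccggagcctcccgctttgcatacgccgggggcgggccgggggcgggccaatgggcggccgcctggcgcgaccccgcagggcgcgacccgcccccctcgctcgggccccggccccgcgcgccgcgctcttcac
The composite letters TGATTNAT occurred in 2 of the 23 Hox promoters (8.7%), those of Hoxa2 and of 1 of the 2 Hoxd11 starts, against 3.22% of all 32851 promoters in the table. TGACAG occurred in 2 (8.7%), those of Hoxa2 and Hoxa3, against 19.2% of all promoters. AGGTCA occurred in 7 (30.4%), those of Hoxa5, Hoxb4, Hoxc4, Hoxd3, Hoxd4, Hoxd8 and Hoxd10, against 16.3% of all promoters. Of general promoter letters, CCAAT occurred in 14 (60.9% against 37.4%) and TATAAA in 3 (13% against 13.6%). All motifs were searched on both strands, and no matches to different motifs overlapped in the Hox promoters. The Hox promoters held 4 to 45 CG dinucleotides with a median of 15, where the median over all promoters was 7. These matches describe the letters in a short window only.

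The first comparison asked which Hox genes differ between FVF+ and FVF- cells over all days. In FVF+ cells 20 of the 37 Hox genes were lower and none was higher, as the mean of the 4 daily differences (limma, adjusted p under 0.05 over all 19296 genes). Over all genes, 25.2% were called lower and 30.5% higher in the same comparison. The median log2 difference was -0.20 over the Hox genes and 0.03 over all genes. 11 of the 20 were lower by at least 2-fold. Since the arrays read bulk RNA, fewer cells that express a gene and less RNA of it per cell cannot be told apart.

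**Figure D1:**
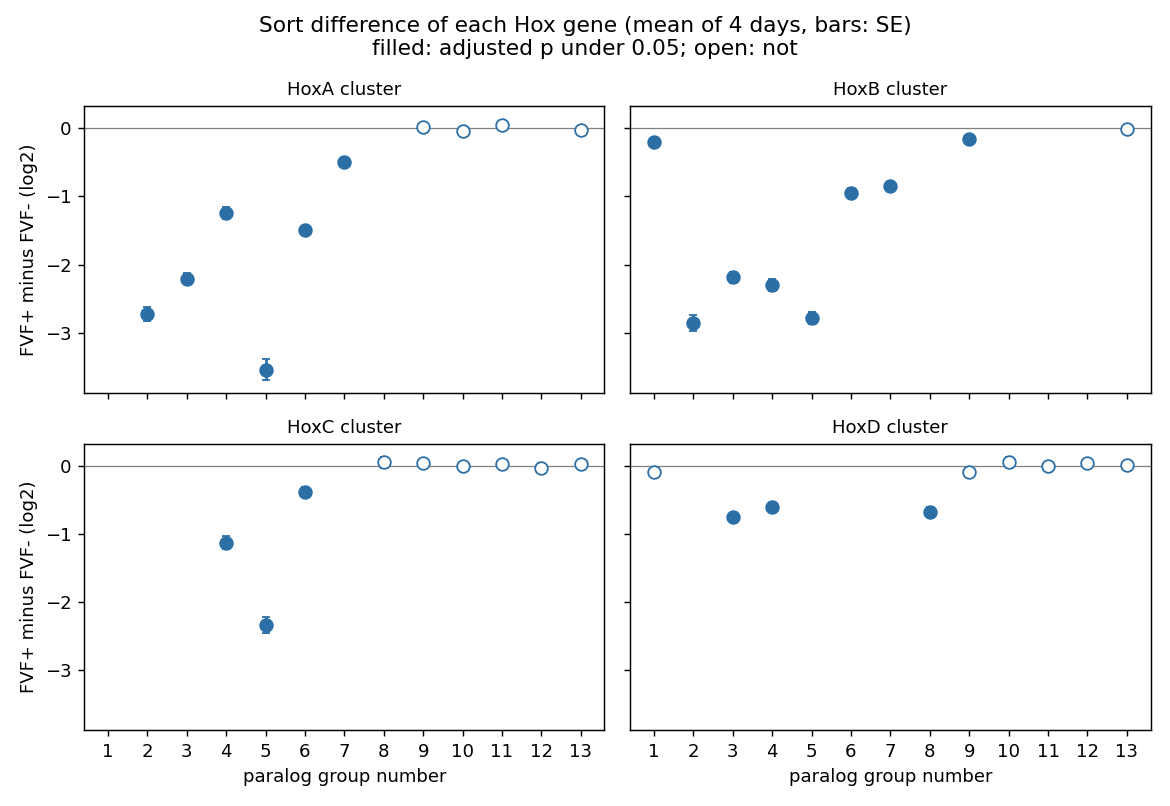
The 4 panels give the clusters, with the paralog group number on the x axis and the log2 difference of FVF+ minus FVF- cells, averaged over 4 days, on the y axis. Bars are SE, filled points passed an adjusted p of 0.05 and open points did not. In each cluster the points lie below 0 among low paralog numbers and near 0 from number 9 on, and Hoxa5 is lowest at -3.54.

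Among paralog groups 1 to 3, the anterior genes, 6 of 7 were lower in FVF+ cells, with a median log2 difference of -2.19. Among groups 4 to 8, the central genes, 13 of 14 were lower, with a median of -1.04, and the exception was Hoxc8 (0.05, SE 0.08). Among groups 9 to 13, the posterior genes, 1 of 16 was lower, which was Hoxb9 (-0.16, SE 0.06, adjusted p = 0.03). The differences of these 16 genes ran from -0.16 to 0.06, with a median of 0.01. That average joined days of opposite sign. At E12.5 all 16 were below 0, with a median of -0.19, and 3 were called lower, where 18.7% of all genes were. At E13.5 all 16 were above 0, with a median of 0.15, and 1 was called higher, where 15.8% of all genes were. The medians were -0.01 at E14.5 and 0.04 at E15.5, with 1 gene and no gene called lower, against 21.5% and 19.5% of all genes. The lower quartile of all values also changed order between the sorts. At E12.5 it was 6.93 to 7.01 on FVF+ arrays and 7.09 and 7.12 on FVF- arrays. At E13.5 it was 7.06 and 7.09 on FVF+ arrays and 6.98 and 7.02 on FVF- arrays. Array codes differed at E13.5 as well, where both FVF+ arrays and FVF- replicate 2 had a letter and every other array had digits. On that day the codes were thus unbalanced between the sorts, and what they stand for is not stated. Whether a shift shared by probe sets of low signal has a part in these signs was not tested. The median over all genes was -0.04, 0.07, 0.00 and 0.07 at the 4 days. The posterior genes were also dim: the mean of the 16 genes was 6.81 to 7.25 on FVF+ arrays and 6.91 to 7.20 on FVF- arrays, below the median of all values of 8.77. Whether they are expressed in either sort was not tested.

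Paralog group 5 gave the largest differences in 2 clusters and the second largest in HoxB. Hoxa5, which patterns lung and gut mesoderm, read 6.71 at the lowest, 7.22 at the median and 8.11 at the highest of the 11 FVF+ arrays. On the 10 FVF- arrays it read 10.23, 10.85 and 11.48. The sorts did not overlap, and the gap between them was larger than the spread within either. The log2 difference was -3.54 (SE 0.15, 11.6-fold lower in FVF+, limma, adjusted p = 2.18e-13), and it was -3.87, -3.26, -3.59 and -3.42 at the 4 days in order.

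Hoxb5, the HoxB gene of the same paralog group, known for a role in enteric neural crest and vessel precursors, ran from 7.05 through a median of 7.50 to 7.96 on FVF+ arrays. On FVF- arrays it ran from 9.69 through 10.36 to 10.78. The sorts were again apart, by a log2 difference of -2.78 (SE 0.09, 6.89-fold, adjusted p = 1.97e-14). Hoxc5 ran from 6.79 through 7.48 to 7.92 on FVF+ arrays and from 9.30 through 9.70 to 10.81 on FVF- arrays. Its difference was -2.34 (SE 0.12, 5.05-fold, adjusted p = 5.74e-12), the largest of HoxC.

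Paralog group 2 holds 2 genes, both known from the hindbrain and its neural crest. Hoxb2 read 7.92 at the lowest, 8.51 at the median and 9.35 at the highest FVF+ array, and 11.04, 11.49 and 11.90 on FVF- arrays. Its difference was -2.86 (SE 0.12, 7.27-fold, adjusted p = 2.65e-13), the largest of HoxB. Hoxa2 read 7.64, 7.78 and 8.48 on FVF+ arrays and 9.82, 10.82 and 11.11 on FVF- arrays. Its difference was -2.73 (SE 0.10, 6.66-fold, adjusted p = 3.16e-14). Neither gene had an FVF+ array within the range of its FVF- arrays.

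Paralog groups 3 and 4 came next. Hoxb4, known for its use in expanding blood stem cells, read 7.09, 7.47 and 7.96 on FVF+ arrays and 9.27, 9.71 and 10.52 on FVF- arrays, a difference of -2.30 (SE 0.09, 4.93-fold, adjusted p = 1.08e-13). Hoxa3, needed for the thymus and parathyroids, read 6.55, 6.99 and 7.51 on FVF+ arrays and 8.47, 9.36 and 9.62 on FVF- arrays. Its difference was -2.21 (SE 0.08, 4.64-fold, adjusted p = 3.07e-14). Hoxb3 read 8.70, 9.09 and 9.55 on FVF+ arrays and 10.81, 11.23 and 11.77 on FVF- arrays, a difference of -2.19 (SE 0.08, 4.56-fold, adjusted p = 8.14e-14). These 3 genes kept the sorts apart on all arrays. The HoxD gene of group 3 was closer to 0: Hoxd3 differed by -0.75 (SE 0.06), and its highest FVF+ array (7.46) lay above its lowest FVF- array (7.44).

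**Figure D2:**
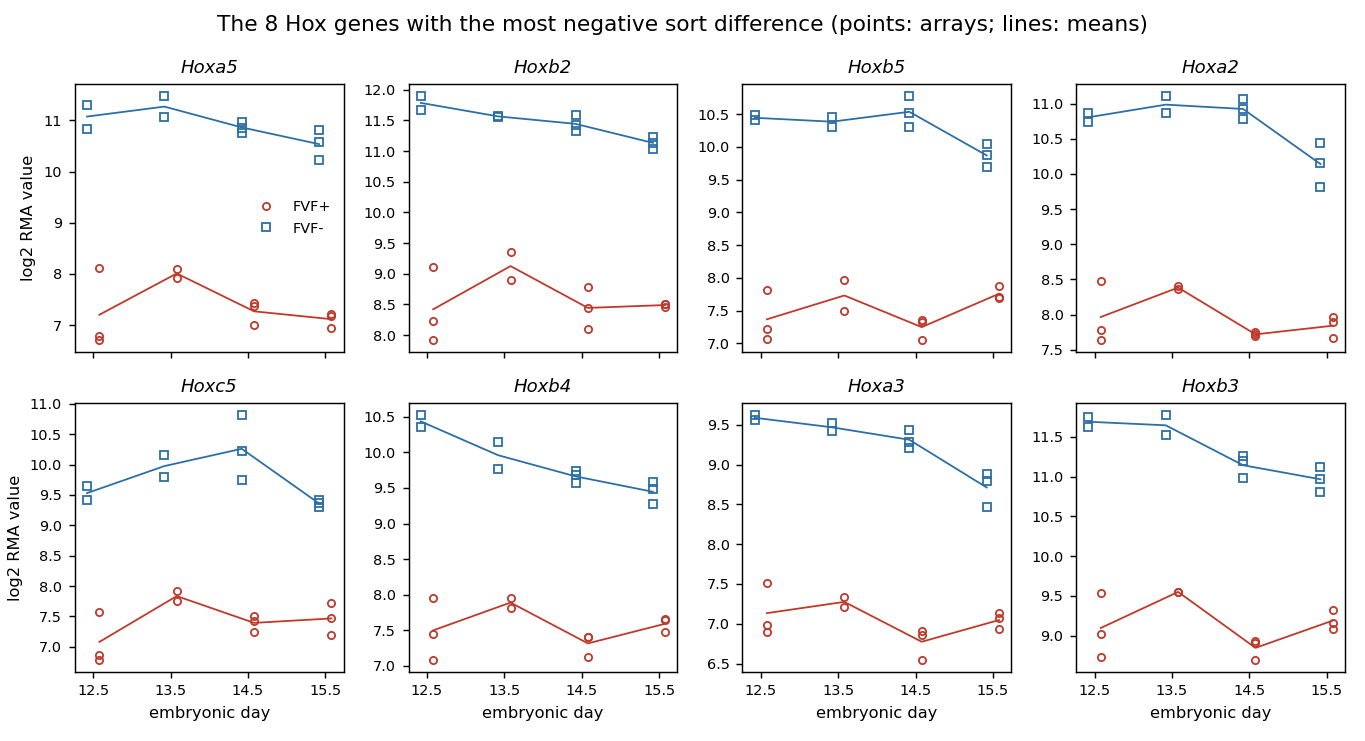
Each panel is 1 of the 8 Hox genes with the most negative difference between the sorts, with embryonic day on the x axis and the log2 RMA value on the y axis. Points are arrays and lines join the group means, with red circles for FVF+ and blue squares for FVF- arrays. All FVF+ arrays lie below all FVF- arrays in the 8 panels, and 1 of the 3 FVF+ arrays at E12.5 lies above the other 2 in each.

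The other called genes had smaller differences. Hoxa6 differed by -1.50 (SE 0.07), Hoxa4 by -1.24 (SE 0.09) and Hoxc4 by -1.13 (SE 0.10), which completed the 11 genes past 2-fold. Hoxb6 (-0.95), Hoxb7 (-0.85), Hoxd8 (-0.68), Hoxd4 (-0.60), Hoxa7 (-0.50) and Hoxc6 (-0.38) followed, with SEs of 0.05 to 0.07. Hoxb1, of group 1, differed by -0.20 (SE 0.06, adjusted p = 0.00725), and its HoxD counterpart Hoxd1 by -0.09 (SE 0.04, adjusted p = 0.0755). Over all members, 15 of 37 had every FVF+ array below every FVF- array, where 9.36% of all genes did.

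The clusters differed in how many of their genes were called. HoxB had 8 of 9 genes lower, HoxA 6 of 10, HoxC 3 of 9 and HoxD 3 of 9, where 25.2% of all genes were lower. The counts of HoxC and HoxD lay near that share. Within paralog numbers 2 to 8 the counts were 6 of 6 in HoxB, 6 of 6 in HoxA, 3 of 4 in HoxC and 3 of 3 in HoxD. The median difference within that stretch was -2.25 in HoxB, -1.86 in HoxA, -0.76 in HoxC and -0.68 in HoxD. The 3 HoxD genes of that stretch lay between -0.75 and -0.60 and none passed 2-fold. They were dim, as were Hoxc4, Hoxc6 and Hoxc8, with every group mean below the median of all values of 8.77. In HoxA and HoxB only Hoxa7 and Hoxb6 of that stretch were as dim. Whether low signal has a part in the smaller differences was not tested. These differences between clusters were not tested, and the probe sets of different genes do not share a scale.

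On each day the genes called were lower in FVF+ cells, with 1 exception. At E12.5, 22 of the 37 Hox genes were lower and none was higher in FVF+ cells, where 18.7% of all genes were lower and 17.2% higher. At E13.5, 17 were lower and 1 higher, against 15.2% and 15.8% of all genes. At E14.5, 21 were lower and none higher, against 21.5% and 23.1%. At E15.5, 16 were lower and none higher, against 19.5% and 24.4%. The gene called higher at E13.5 was Hoxb13, a posterior gene known from tail and prostate, with values of 7.21 and 7.29 on FVF+ arrays and 6.99 and 6.92 on FVF- arrays (difference 0.29, SE 0.11, adjusted p = 0.0436). Hoxb13 was lower at E12.5 (-0.33, SE 0.10, adjusted p = 0.0131) and was not called at E14.5 (-0.06) or E15.5 (0.06). Its call at E13.5 was lost when any 1 of the 4 arrays of that day was left out and under quantile or cyclic loess normalisation, array weights and some other settings. Its call at E12.5 held in 11 of 15 settings. The other posterior genes called at E12.5 were Hoxb9, which held in 10 of 15 settings, and Hoxd12, which held in 11 of 15. All of these E12.5 calls were lost under quantile and under cyclic loess normalisation, and without some single arrays.

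**Figure D3:**
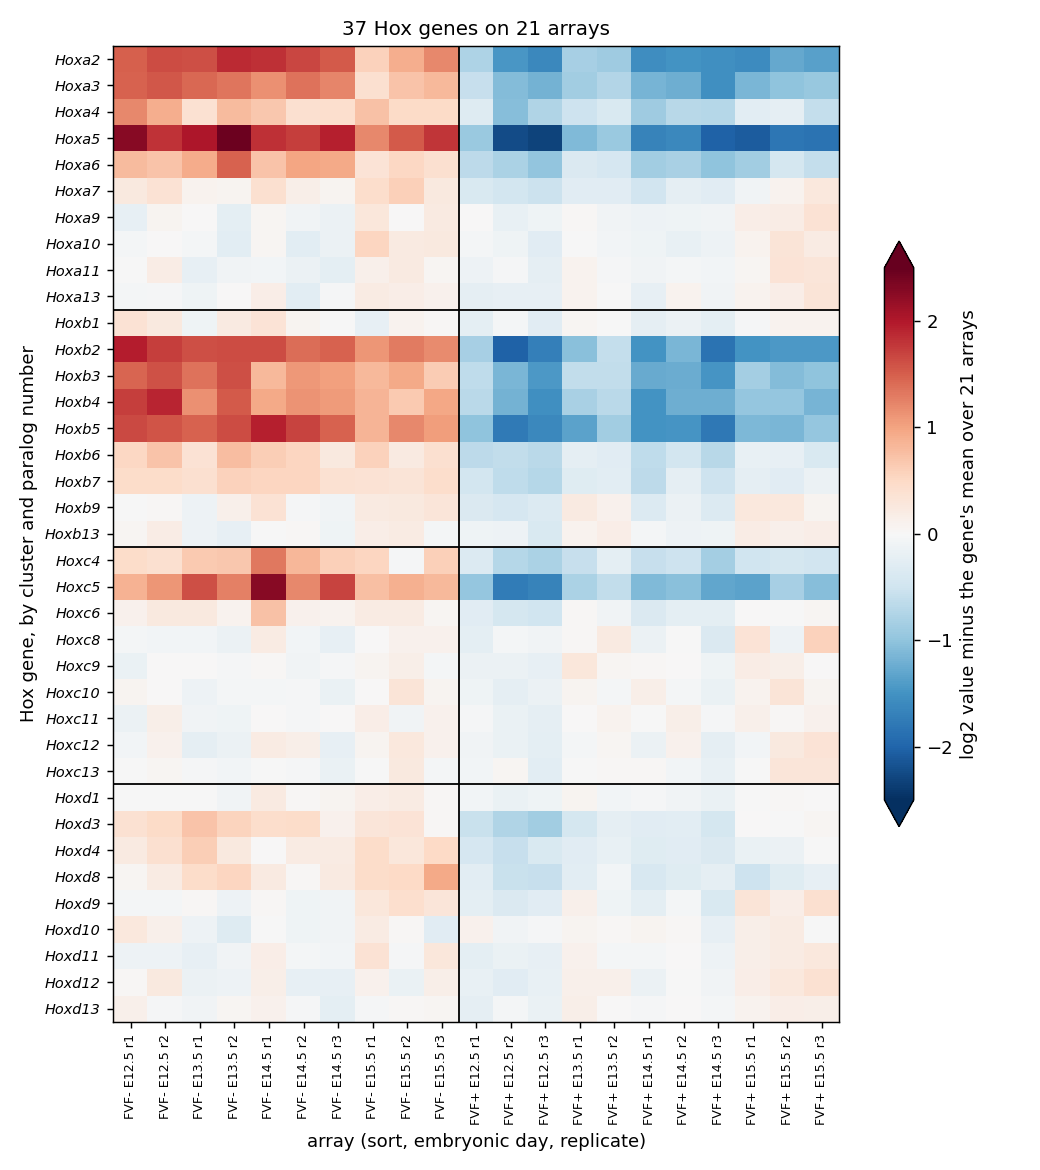
Rows are the 37 Hox genes by cluster and paralog number, and columns are the 21 arrays, FVF- at the left of the vertical line and FVF+ at the right, by embryonic day and replicate. The colour is the log2 value minus the mean of the gene over all arrays, from blue (lower) to red (higher). Hoxa2, Hoxa3, Hoxa5, Hoxb2 to Hoxb5 and Hoxc5 carry the strongest contrast between the sorts, and rows from number 9 on show little.

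The second comparison asked which Hox genes changed between E12.5 and E15.5 within FVF- cells. There 5 Hox genes fell and 4 rose, where 9.7% of all genes fell and 10.7% rose. The 5 that fell were of paralog groups 2 to 5 in HoxA and HoxB, and the 4 that rose were of groups 8 to 11 in HoxA and HoxD. Over the 7 anterior genes the median change was -0.65, over the 14 central genes -0.13 and over the 16 posterior genes 0.11. The mean of the 12 mesenchyme markers in FVF- cells was 11.69 and 11.83 at E12.5 and 12.39 to 12.43 at E15.5, so it moved the other way from the genes that fell. Other marker means moved in FVF- cells too: leukocyte markers went from 9.51 and 9.70 to between 10.77 and 11.04, endothelium markers from 10.06 and 10.37 to between 10.62 and 11.42, and acinar markers from 8.68 and 8.69 to between 9.90 and 10.76. Epithelium markers went from 8.03 and 8.11 to between 8.46 and 9.05, and mesothelium markers from 9.98 and 10.04 to between 10.53 and 10.81. Markers of spleen and stomach mesenchyme moved the same way as the Hox genes that fell, from 10.92 and 11.10 to between 10.56 and 10.89, as did red blood cell markers, from 10.73 and 10.84 to between 10.17 and 10.70. The part of these shifts in the result was not tested.

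Hoxb4 fell most in FVF- cells. It read 10.35 and 10.52 at E12.5, 9.77 and 10.15 at E13.5, 9.57, 9.74 and 9.68 at E14.5, and 9.48, 9.27 and 9.59 at E15.5. All E15.5 arrays lay below both E12.5 arrays, and the change was -0.99 (SE 0.18, adjusted p = 0.000878). Hoxa3 read 9.56 and 9.62 at E12.5, then 9.52 and 9.42, then 9.21, 9.44 and 9.29, and at E15.5 it read 8.47, 8.79 and 8.88. Its change of -0.88 (SE 0.16, adjusted p = 0.000737) lay mostly in the last day. Hoxb3 read 11.63 and 11.75 at E12.5 and 10.97, 11.12 and 10.81 at E15.5, a change of -0.72 (SE 0.17, adjusted p = 0.00551). Hoxa2 fell by 0.66 (SE 0.20, adjusted p = 0.0225) and Hoxb5 by 0.57 (SE 0.19, adjusted p = 0.0416). The other HoxA and HoxB genes of groups 1 to 6 had changes from -0.65 in Hoxb2 to -0.21 in Hoxb6 and did not pass the test.

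The genes that rose in FVF- cells were dim. Hoxd8 read 6.96 and 7.13 at E12.5 and 7.38, 7.42 and 7.87 at E15.5, a rise of 0.51 (SE 0.14, adjusted p = 0.0157). Hoxd9 read 7.58 and 7.57 at E12.5 and 7.91, 8.05 and 7.93 at E15.5, a rise of 0.39 (SE 0.11, adjusted p = 0.0137). Hoxa10, a gene of trunk and reproductive tract patterning, read 7.22 and 7.27 and then 7.80, 7.49 and 7.51, a rise of 0.36 (SE 0.11, adjusted p = 0.0359). Hoxd11 rose by 0.33 (SE 0.11, adjusted p = 0.0327). For these 4 genes the groups did not overlap. With quantile normalisation 2 rose and 6 fell, and with the arrays centred on their medians 2 rose and 8 fell. Only Hoxa3 and Hoxb4 kept the call under every alternative except the 2-fold limit, which neither reached, and without either FVF- array of E12.5 the count of Hox genes called fell from 9 to 3.

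Hoxc4, Hoxc5 and Hoxc6 had their highest FVF- group means at E14.5. Hoxc5 read 9.41 and 9.65 at E12.5, 10.15 and 9.80 at E13.5, 10.81, 9.74 and 10.23 at E14.5, and 9.30, 9.42 and 9.36 at E15.5. Hoxc4 read 7.55 and 7.49, then 7.74 and 7.75, then 8.40, 7.91 and 7.68, and then 7.62, 7.05 and 7.68. The first E14.5 array was the highest of its group in Hoxc4, Hoxc5 and Hoxc6 (7.29 in Hoxc6, where the other 2 read 6.65 and 6.64). No HoxC gene was called between E12.5 and E15.5 in FVF- cells, and the step to E14.5 was not tested.

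The third comparison asked the same of FVF+ cells. There 22 Hox genes rose from E12.5 to E15.5 and none fell, where 27.6% of all genes rose and 19.3% fell. The changes were small, and none reached 2-fold. Of the 22, 15 were among the 16 posterior genes, 6 among the 14 central genes and 1 among the 7 anterior genes. The rise went with signal level: 21 of the 22 were among the 25 Hox genes whose group means all lay at or below the median of all values. Of all 7889 genes that dim, 33.6% rose and 5.29% fell, with a median change of 0.17, against a median of 0.35 over the 25 Hox genes. After quantile normalisation of the deposited values 7 Hox genes rose, and after cyclic loess 6 did, while the share of dim genes that rose fell to 13.1% and 11%. How signal level and the change over time come together was not tested further.

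Hoxd3 rose most in FVF+ cells. It read 6.87, 6.67 and 6.54 at E12.5, 6.97 and 7.19 at E13.5, 7.14, 7.16 and 6.98 at E14.5, and 7.42, 7.41 and 7.46 at E15.5. The E15.5 arrays were all above those of every earlier day, and the change from E12.5 was 0.74 (SE 0.11, adjusted p = 8.36e-05). Hoxd9 read 7.37, 7.26 and 7.33 at E12.5 and 7.94, 7.79 and 8.02 at E15.5, a rise of 0.60 (SE 0.09, adjusted p = 9.88e-05). Hoxb9 read 7.61, 7.55 and 7.63 at E12.5 and 8.23, 8.24 and 8.04 at E15.5, a rise of 0.57 (SE 0.11, adjusted p = 0.000459). Hoxd9 and Hoxb9 belong to the first paralog group of the posterior class. The other 19 rises ran from 0.23 in Hoxc11 to 0.55 in Hoxa7. Hoxa7, Hoxb9, Hoxd3, Hoxd9 and Hoxd12 kept the call under every alternative that tested them except the 2-fold limit, and the filter on dim genes left them untested.

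None of the 11 genes lower by at least 2-fold between the sorts was called for a change over time in FVF+ cells. Of all genes, 27.6% rose and 19.3% fell there. Hoxa5 changed by -0.09 (SE 0.27), Hoxa2 by -0.12 (SE 0.18), Hoxb2 by 0.07 (SE 0.22) and Hoxa3 by -0.09 (SE 0.14), none of which passed the test. At E12.5, 1 FVF+ array stood apart in these genes. FVF+ E12.5 replicate 1 read 8.11 for Hoxa5, where the other 2 arrays of the group read 6.79 and 6.71. It read 9.11 for Hoxb2 against 7.92 and 8.23, and 8.48 for Hoxa2 against 7.78 and 7.64. The same array had a mean of 9.51 over the 12 mesenchyme markers, where the other 2 had 8.59 and 8.42, and a mean of 7.80 over the 20 Hox genes lower in FVF+ cells, where the other 2 had 7.38 and 7.34. The 2 FVF+ arrays of E13.5 were the highest FVF+ arrays in both measures, with 9.62 and 9.69 for the markers and 7.84 and 7.95 for the Hox genes. Whether FVF- cells in these FVF+ samples contribute to the Hox values was not tested. Without FVF+ E12.5 replicate 1, the same 20 genes were lower over the days, and without the E13.5 arrays Hoxd1 and Hoxd9 were called as well, 22 in all.

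**Figure D4:**
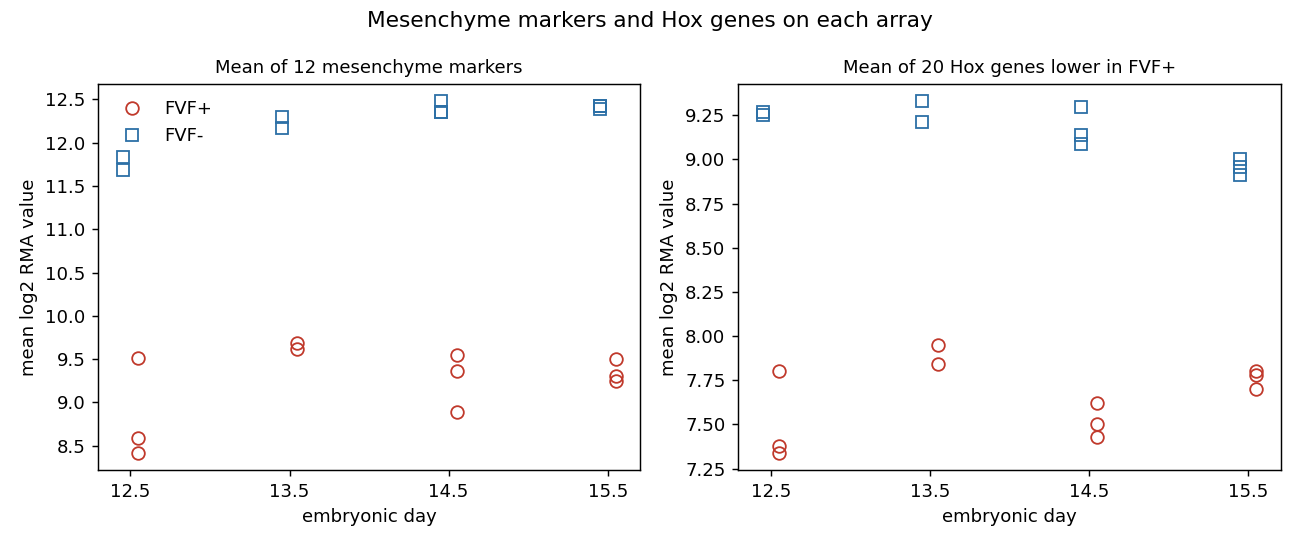
Both panels have embryonic day on the x axis and a mean log2 RMA value on the y axis, for 12 mesenchyme markers at the left and for the 20 Hox genes lower in FVF+ cells at the right. Each point is an array, with red circles for FVF+ and blue squares for FVF- arrays. The FVF+ array at E12.5 that stands above its group in the markers (9.51) also does in the Hox genes (7.80), and in FVF- cells the Hox mean is lower at E15.5 than at every earlier day while the marker mean is not.

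The last comparison tested whether the change over time differed between the sorts. The interaction was called for 11 Hox genes, all with a more positive change in FVF+ than in FVF- cells, where 10.8% of all genes were called in that direction and 8.83% in the other. 7 of the 9 HoxB genes were among them, with 2 each of HoxA and HoxD and none of HoxC. The median over the Hox genes was 0.34 and over all genes 0.07. Of the 11, Hoxa3, Hoxb3, Hoxb4 and Hoxb5 were called as falling in FVF- cells, and Hoxb6, Hoxb7, Hoxb13, Hoxd3 and Hoxd12 as rising in FVF+ cells. Hoxa4 and Hoxb1 were called in neither sort alone.

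Hoxb4 had the largest interaction, 1.08 (SE 0.25, adjusted p = 0.00572). In FVF+ cells it read 7.96, 7.45 and 7.09 at E12.5 and 7.65, 7.66 and 7.47 at E15.5, which overlap, while in FVF- cells it fell as given above. Hoxb5 followed with 0.96 (SE 0.26, adjusted p = 0.0146). It read 7.82, 7.06 and 7.22 in FVF+ cells at E12.5 and 7.71, 7.69 and 7.87 at E15.5, and 10.48 and 10.41 in FVF- cells at E12.5 and 9.69, 10.04 and 9.88 at E15.5. Its sort difference was -3.08 at E12.5 and -2.11 at E15.5. Hoxd3 had 0.94 (SE 0.17, adjusted p = 0.00116), with the rise in FVF+ cells given above, and its sort difference went from -1.15 at E12.5 to -0.21 at E15.5, which was no longer called (adjusted p = 0.158).

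Hoxa4 had an interaction of 0.84 (SE 0.25, adjusted p = 0.0233). It read 9.42, 8.67 and 8.99 in FVF+ cells at E12.5 and 9.47, 9.52 and 9.14 at E15.5, and 10.94 and 10.64 in FVF- cells at E12.5 and 10.47, 10.21 and 10.21 at E15.5. Neither change passed the test within its sort, and only their difference did. Hoxb3 had 0.82 (SE 0.23, adjusted p = 0.0188), and Hoxa3 had 0.79 (SE 0.21, adjusted p = 0.0155). Both fell in FVF- cells, while in FVF+ cells Hoxb3 read 9.54, 9.02 and 8.73 and then 9.32, 9.09 and 9.16, and Hoxa3 read 7.51, 6.99 and 6.90 and then 6.94, 7.07 and 7.13. The other 5, Hoxb6, Hoxd12, Hoxb1, Hoxb7 and Hoxb13, had interactions of 0.60, 0.60, 0.58, 0.47 and 0.38. Hoxb4 kept the call under every alternative run. Hoxd3 lost it only at the 2-fold limit, and the filter on dim genes left it untested. Without FVF- E12.5 replicate 1 the count fell to 6, and without FVF- E12.5 replicate 2 to 4.

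**Figure D5:**
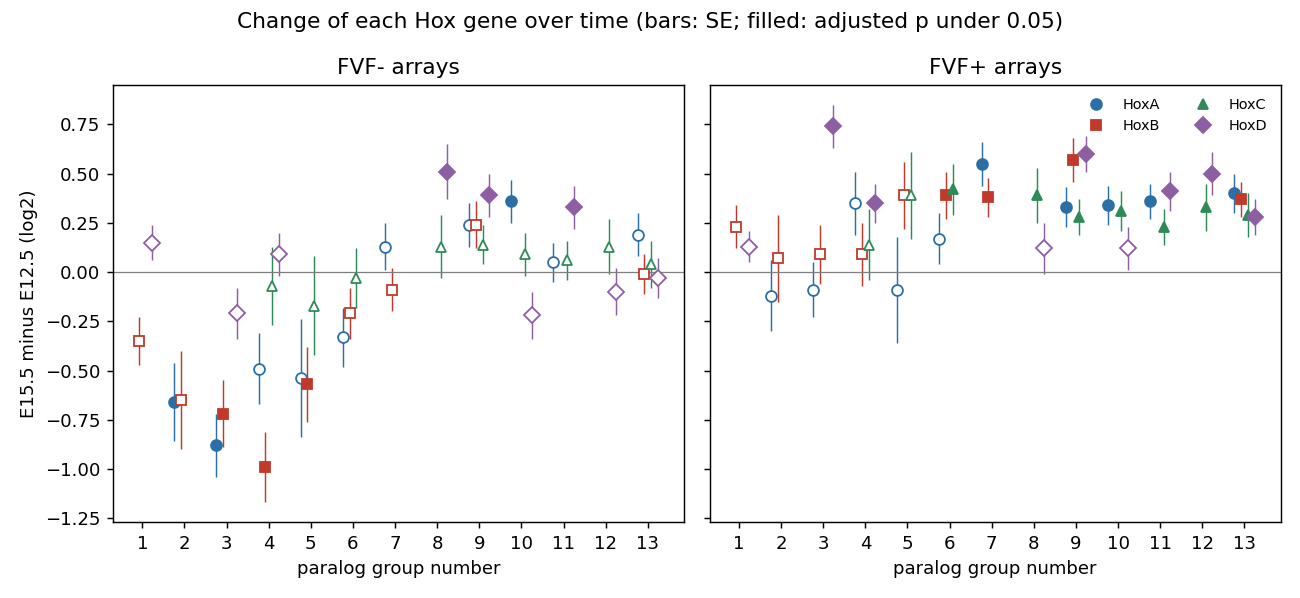
The x axis is the paralog group number and the y axis the log2 change from E12.5 to E15.5, in FVF- arrays at the left and FVF+ arrays at the right. Bars are SE, symbols and colours give the cluster, and filled symbols passed an adjusted p of 0.05. In FVF- arrays the lowest points are HoxA and HoxB genes of groups 2 to 5, down to -0.99 in Hoxb4, and in FVF+ arrays the points lie between -0.12 and 0.74.

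The microRNA genes of the clusters were measured by probe sets for the gene, which do not report the mature form. Of 6, Mir10a and Mir615 were lower in FVF+ cells and 4 were not called, as the mean over days, a share of 33.3% where 25.2% of all genes were lower. Mir10a, beside Hoxb4, read 4.85, 4.94 and 5.10 at the lowest, median and highest FVF+ array and 5.01, 5.29 and 5.89 on FVF- arrays, a difference of -0.47 (SE 0.05, adjusted p = 8.63e-08). Mir10a was dim in both sorts, below the lower quartile of every array (6.93 to 7.20), where the lowest of all values was 4, and its sorts overlapped. In FVF- cells it fell by 0.69 from E12.5 to E15.5 (SE 0.10, adjusted p = 9.05e-05), from 5.66 and 5.89 to between 5.01 and 5.18. Its seed partner Mir10b, beside Hoxd4, differed by -0.08 (SE 0.04) between the sorts and did not pass the test. Mir615, in HoxC, was lower by -0.30 (SE 0.07, adjusted p = 0.00208) and rose by 0.88 in FVF+ cells (SE 0.14, adjusted p = 8.26e-05). Mir196b, in HoxA beside Hoxa9 and Hoxa10, differed by 0.05 (SE 0.05) between the sorts and rose by 0.56 in FVF+ cells (SE 0.10, adjusted p = 0.000262). Of all genes, 27.6% rose in FVF+ cells over these days. The alternatives followed the Hox genes only, so whether the microRNA rises hold under other normalisation was not tested. Whether these probe sets also read longer transcripts of neighbouring Hox genes was not tested.

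Of 14 noncoding RNA genes listed for the clusters, 2 were measured. Hoxaas2, an antisense RNA gene that lies between Hoxa2 and Hoxa3, was lower in FVF+ cells by -1.09 (SE 0.08, adjusted p = 8.98e-10), and its sorts did not overlap. Hoxd3os1 differed by -0.10 (SE 0.06) and was not called. Among 15 measured genes that flank the clusters, 5 were higher (33.3%) and 2 lower (13.3%) in FVF+ cells, where 30.5% and 25.2% of all genes were. The higher ones were led by Ttll6 (1.47, SE 0.36), Snx10 (0.91, SE 0.07), Hibadh (0.70, SE 0.06) and Tax1bp1 (0.51, SE 0.12), and the lower ones were Skap2 (-0.93, SE 0.07) and Calcoco1 (-0.44, SE 0.10). Lnpk (-0.13, SE 0.12) and Mtx2 (0.13, SE 0.09) were not called. Evx2 (-0.08, SE 0.05) and Evx1 (-0.06, SE 0.06), the homeobox genes at the posterior ends of HoxD and HoxA, were not called either. The median over the 15 was 0.09.

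The TALE cofactors were mixed. Of 8 measured, 5 were lower (62.5%) and 1 higher in FVF+ cells, with a median of -0.35, where 25.2% and 30.5% of all genes were. Pknox2 differed by -2.65 (SE 0.11, adjusted p = 1.52e-13), with FVF+ arrays from 6.73 to 8.10 and FVF- arrays from 9.19 to 10.86. Meis1 (-0.87, SE 0.06), Meis3 (-0.86, SE 0.07) and Pknox1 (-0.43, SE 0.05) were also lower, as was Pbx2 by a smaller amount (-0.26, SE 0.06), and Pbx3 was higher (0.40, SE 0.06). Pbx4 (0.10, SE 0.05) and Meis2 (0.02, SE 0.06) were not called. Meis2 nonetheless fell by 0.81 in FVF- cells from E12.5 to E15.5 (SE 0.12, adjusted p = 0.000139), and its interaction was 0.83 (SE 0.16, adjusted p = 0.00216).

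The ParaHox genes, an ancient sister group of the Hox clusters, were listed together with the related Cdx genes. Of 6, where 30.5% of all genes were higher, only Pdx1, the master regulator of pancreas formation, was called, and it was higher in FVF+ cells by 4.30 (SE 0.14, adjusted p = 1.74e-14), with FVF+ arrays from 11.30 to 12.22 and FVF- arrays from 6.98 to 8.76. The others lay between -0.11 in Cdx1 and 0.09 in Cdx2.

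Retinoic acid is a known inducer of anterior Hox genes, and 11 genes of its pathway and of other signals to Hox genes were listed. In FVF+ cells 6 were lower (54.5%) and 2 higher (18.2%), with a median of -0.23, where 25.2% and 30.5% of all genes were. Aldh1a2, which makes retinoic acid, differed by -3.13 (SE 0.11), the receptor gene Rarb by -2.88 (SE 0.07), Cyp26b1, which breaks retinoic acid down, by -0.91 (SE 0.08), and the receptor gene Rara by -0.75 (SE 0.05). Aldh1a1 (1.76, SE 0.09) and Gdf11 (0.35, SE 0.05) were higher, and Cyp26a1 (-0.08, SE 0.05) and Fgf8 (0.01, SE 0.05) were not called. In FVF- cells the mean of Aldh1a2 rose 2.83-fold, from 9.88 at E12.5 to 11.38 at E15.5 on the log2 scale (SE 0.22, adjusted p = 0.000139).

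Polycomb and trithorax proteins keep Hox genes silent or active. Of 25 measured, 10 were higher (40%) and 4 lower (16%) in FVF+ cells, with a median of 0.12, where 30.5% and 25.2% of all genes were. The higher ones were led by Suz12 (0.81, SE 0.14), Cbx7 (0.72, SE 0.07), Kdm6a (0.50, SE 0.08) and Bmi1 (0.40, SE 0.11), and the lower ones were Phf19 (-1.01, SE 0.07), Phc1 (-0.24, SE 0.06), Phc2 (-0.16, SE 0.06) and Pcgf2 (-0.14, SE 0.05). Kmt2a (0.27, SE 0.11) and Men1 (-0.15, SE 0.06), of the trithorax side, were not called. From E12.5 to E15.5 in FVF+ cells 13 of the 25 fell (52%) and 2 rose (8%), where 19.3% and 27.6% of all genes did.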

How the data were processed

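The deposited log2 values were made by the authors with robust multi-array average (RMA, affy 1.44.0), per the submitters' processing notes. The probe-set definition and genome build are not given in the sources used here, and scanner intensities were not analysed here. Of 23305 probe sets, 20728 had exactly 1 gene symbol in the platform annotation, and the one with the highest mean was kept for each of 19296 genes. The 21 arrays entered a single limma model (version 3.58.1, R 4.3.3) with a mean for each of 8 groups, 13 residual degrees of freedom and empirical Bayes moderation. For each of 8 comparisons the two-sided p-values of the 19296 genes received the Benjamini-Hochberg adjustment. The fit was run on simulated data with independent noise and few shifted genes, which checks the calculation and not the calls given here. All adjusted p-values are from limma.

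The members, the gene lists and the paralog groupings were chosen with earlier results of these data known. Array values are given for the 8 most negative sort differences, the 3 largest called rises and falls of each sort and the 6 largest interactions, and in other lists for up to 4 called genes a direction and 2 not called. Values of Hoxb13, Hoxc4, Hoxc6, Hoxd11, Evx1 and Evx2 and the changes over time of single microRNA, cofactor and retinoic acid genes were added after they were seen. Alternatives covered rows per gene, a filter on dim genes, normalisation, moderation, array weights and the arrays fitted. They also covered a term for the replicate number, a term for arrays with a letter in their code, a 2-fold limit and leaving out each array.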

Additional observations from a re-analysis of the deposited data

Results flagged for a closer look

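For 11 Hox genes the E12.5-to-E15.5 shift in level differed between FVF+ and FVF- cells by the interaction term (limma, adjusted p under 0.05), which flagged them for a closer look. The differences, FVF+ minus FVF- on the log2 scale, were 1.08 in Hoxb4, 0.96 in Hoxb5, 0.94 in Hoxd3, 0.84 in Hoxa4, 0.82 in Hoxb3, 0.79 in Hoxa3, 0.60 in Hoxb6, 0.60 in Hoxd12, 0.58 in Hoxb1, 0.47 in Hoxb7 and 0.38 in Hoxb13. In the same comparison 10.8% of all genes were called in this direction. Groups held 2 or 3 arrays, so no formal outlier test was run, and the count of called genes was 6 without FVF- E12.5 replicate 1, 4 without FVF- E12.5 replicate 2 and 14 without FVF+ E12.5 replicate 1.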

How the results depend on the processing

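No called difference of a Hox gene changed sign under any alternative. The difference between the sorts over all days was the most stable: apart from the 2-fold limit, 18 of the 20 calls held under every alternative that tested the gene, and the exceptions were Hoxb9 and Hoxb1, the latter lost only under quantile normalization. With the filter on dim genes, which left 12 Hox genes to test, 12 were called over all days, 12, 11 and 12 at the first 3 days, 1 in the FVF+ change and 7 in the interaction. Of these 12 genes, 9 passed the filter only through FVF- groups, so their sort difference helped decide which were tested and the counts say nothing of stability. With a limit of at least 2-fold, the counts were 11 over all days, 14, 11, 12 and 9 at the 4 days in order, 0 in the FVF+ change, 0 in the FVF- change and 1 in the interaction. Quantile normalization left 7 calls in the FVF+ change, and cyclic loess normalization left 6 there and 7 in the interaction, and the cause was not tested. Array weights raised the FVF- change to 14. Leaving out 1 array gave 3 to 10 calls in the FVF- change, with 5 without FVF- E15.5 replicate 1, and 4 to 14 in the interaction, while the other 6 counts stayed within 1.5 times. With medians centred, the median interaction over all genes was 0.14 and over the Hox genes 0.40, with 11 calls. Cyclic loess turned the split of all genes in the interaction from 2083 higher and 1703 lower to 1390 and 2014, and array weights gave 3338 and 2520. In the FVF- change, cyclic loess gave 2476 and 1406 and median centring 1637 and 2651, where the deposited values gave 2073 and 1872.

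Same-numbered arrays of the 2 sorts were not paired by the labels. The correlations of their deviations from the group means ran from -0.37 to 0.49, with 3 of 10 over 0.1. Differently numbered arrays of a day ran from -0.54 to 0.58. The deviations within a group cancel out, so these values are not independent and cannot show whether arrays were paired. A fit with a term for the replicate number, shared by all days and both sorts, called 20 Hox genes over all days. It called 22, 17, 21 and 16 at the 4 days, 21 in the FVF+ change, 8 in the FVF- change and 9 in the interaction. The term does not pair the arrays of a day, so these counts cannot show what a pairing would change. Dim genes, which include all posterior Hox genes, are limited by signal over background, and groups of 2 arrays limit the E12.5 and E13.5 comparisons.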
